A study of Saccharomyces cerevisiae with 34 samples.

Results

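The 56 genes described here encode nucleolar ribosome assembly factors of the budding yeast Saccharomyces cerevisiae, chosen by systematic name and not by any measured value. They are proteins of the 90S pre-ribosome and of the early pre-60S particle. A row in the count table was found for 55 of them, against 5368 S. cerevisiae open reading frames in all. NOP58 was not analysed here, and YTM1 was listed at 0 reads in every library, which left 54 genes that passed the filter on low counts and were tested in both nascent and total RNA.

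Ribosomes are built in the nucleolus, where RNA polymerase I makes a long ribosomal RNA precursor and assembly factors fold, cut and modify it while ribosomal proteins join. The 90S particle forms on the nascent precursor from the U3 snoRNP and the UTP-A, UTP-B and MPP10 complexes and gives rise to the small subunit. The pre-60S particle matures into the large subunit with the help of RNA-binding proteins, helicases and GTPases. The genes for these factors are transcribed by RNA polymerase II, are highly expressed in growing yeast and are known to go up and down together with nutrients and stress. Many carry 2 short promoter elements, PAC, which the repressors Dot6 and Tod6 bind, and RRPE, which Stb3 binds.

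The cultures were strain BY4741, wild type (WT) or carrying 1 of 2 alleles of KIN28, kin28as or kin28is. KIN28 encodes the TFIIH kinase that acts on the C-terminal domain of polymerase II, and cells with either allele respond to kinase inhibitors added to the culture. All cultures grew in dextrose medium without histidine at 30 °C and were treated over 1 h with CMK, an irreversible inhibitor, with 1-NAPP-1, a reversible one, or with DMSO. The labelled dose was 2 µM for replicate 1 and 5 µM for every later replicate. A pulse of 6 min with 5 mM 4-thiouracil (4tU) marked new RNA, and 4tU-labelled cells of the fission yeast Schizosaccharomyces pombe were added before lysis, 1 cell for every 6. Nascent RNA was the RNA pulled down through 4tU, and total RNA skipped that step. In nascent RNA there were 2 WT libraries per treatment, and kin28is had 4 libraries under CMK and 3 under each other treatment. In total RNA both strains had 2 libraries per treatment. The kin28as strain had 1 DMSO and 1 1-NAPP-1 library per fraction, all at 2 µM, and a WT DMSO culture without 4tU, labelled 5 µM, gave 1 library per fraction. Dose and replicate set cannot be told apart.

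To show the shared promoter elements, the 250 bases upstream of each start codon were read from the R64 assembly, the sequence of the build sacCer3, and searched on both strands for the PAC core GATGAG and the RRPE core AAAATTTT. The second is its own reverse complement, and matches of the 2 cores cannot overlap each other. The 8 lines below are named genes whose 2 matches lie closest together, counted from first base to first base. MPP10 is tied with NOP56 at 17 bases and is not printed. Each line is on the strand of the gene and is read towards its start codon. Capitals mark the cores, with CTCATC being GATGAG on the other strand.
NOG2: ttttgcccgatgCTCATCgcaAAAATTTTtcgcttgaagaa
RRP5: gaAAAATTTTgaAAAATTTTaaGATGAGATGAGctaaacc
PWP2: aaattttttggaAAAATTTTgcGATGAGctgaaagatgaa
UTP20: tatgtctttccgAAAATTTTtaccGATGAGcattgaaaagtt
RPF1: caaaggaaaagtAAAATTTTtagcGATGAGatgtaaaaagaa
BRX1: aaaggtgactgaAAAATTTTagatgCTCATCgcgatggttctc
NSR1: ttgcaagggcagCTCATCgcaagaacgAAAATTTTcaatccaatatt
NOP56: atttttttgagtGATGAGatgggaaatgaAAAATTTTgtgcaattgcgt

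These windows lie at chrXIV:723265-723305 for NOG2, chrXIII:731262-731301 for RRP5, chrIII:223355-223394 for PWP2, chrXV:186852-186894 for BRX1 and chrVII:807809-807855 for NSR1, all on the minus strand. Those of UTP20 (chrII:227440-227481), RPF1 (chrVIII:281372-281413) and NOP56 (chrXII:545958-546006) are on the plus strand. GATGAG occurred upstream of 52 of the 56 genes (92.9%), against 17.0% of the 6001 nuclear protein-coding genes. AAAATTTT occurred upstream of 44 (78.6%, against 8.65%), and both occurred upstream of 42, against 4.08% of all genes. Of 72 other ribosome assembly genes 69.4% had both, whereas of 137 cytosolic ribosomal protein genes 0.73% did, so the 2 classes of ribosome genes differ in these letters. The match nearest the start codon lay a median of 108.5 bases upstream for GATGAG (quartiles 93.0 and 126.25) and 133.0 bases upstream for AAAATTTT (quartiles 115.0 and 153.25). In 36 of the 42 genes with both, the nearest PAC core lay closer to the start codon than the nearest RRPE core. NOG2, NSR1 and NOP56 above show the other order. A match is a string of letters and not a measured binding site.

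**Figure D1:**
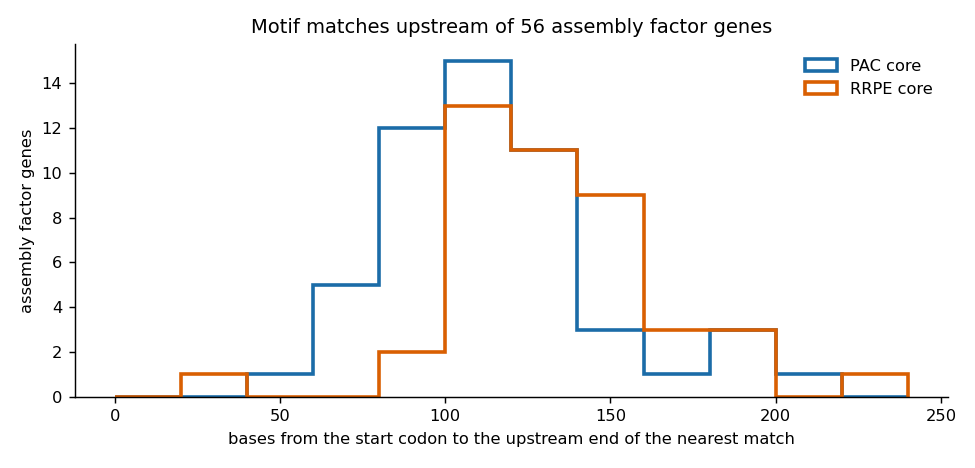
Histogram of the distance in bases from the start codon to the upstream end of the nearest PAC core (blue) and RRPE core (orange), with the number of assembly factor genes on the vertical axis and the 56 genes as the set searched. Matches cluster around medians of 108.5 and 133.0 bases.

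Library depth ran from 517887 to 15568445 reads (median 4785090), and a tested assembly factor gene had a median of 81 to 8117 reads in the nascent and 441 to 1369 reads in the total libraries with 4tU. Together the 55 genes took 1.5% to 3.26% of S. cerevisiae reads in nascent and 1.61% to 2.19% in total RNA, against 2.42% to 7.73% and 10.5% to 17.0% for cytosolic ribosomal protein genes. The 2 µM and 5 µM sets stood far apart per S. pombe read: summed over the 55 genes, nascent WT DMSO gave 1454060 reads per 1000000 S. pombe reads in replicate 1 and 78580 in replicate 2. The nascent library without 4tU gave 3027 on the same scale, which is RNA that came down without label. Changes are given on 2 scales below. Per S. pombe RNA, each library was scaled to its S. pombe reads, and a change in the number of cells and a change in RNA per cell cannot be told apart. Relative to S. cerevisiae genes, each gene was compared with the other genes of the same library.

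In untreated WT cells the assembly factor genes were made at high rates. Their median nascent level was 245 reads per kilobase and per 1000000 S. cerevisiae reads (RPKM, mean of the 2 DMSO libraries), against 78.2 for all genes, 232 for ribosomal protein genes and 168 for the other assembly genes. The highest was RLP24 (YLR009W), which encodes a placeholder for ribosomal protein L24 on the pre-60S particle, at 1061 and 371 RPKM in replicates 1 and 2. NOP56 (YLR197W), a core protein of box C/D snoRNPs, BRX1 (YOL077C), a pre-60S factor, and NSR1 (YGR159C), the yeast nucleolin, followed at means of 612, 597 and 554 RPKM, and their order is within the difference between replicates. The lowest that was read at all was BMS1, a 90S GTPase, at a mean of 115 RPKM.

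In total RNA the median was 144 RPKM against 59.9 for all genes and 1181 for ribosomal protein genes. By this measure the 2 classes, close in nascent RNA, were far apart in the RNA pool. Reads of near-identical gene copies cannot be assigned with certainty, and the ribosomal protein gene RPS9A was at 0 RPKM in both fractions. The levels of that class are therefore less sure. Ratios of nascent to total RPKM put the median assembly factor gene above 85.1% of genes in WT DMSO replicate 1, with 44 of 54 over the median gene. In replicate 2 it was above 47.4% of genes, with 26 of 54 over the median gene, so a high ratio was not seen in both sets. Ribosomal protein genes were above 4.02% and 1.95% of genes in the 2 replicates. NOG2 (YNR053C), a GTPase of late nuclear pre-60S particles, had the lowest ratio of the 54 in both. Its annotated span (chrXIV:721120-723112) contains the snoRNA gene SNR191 (chrXIV:721938-722211) on the same strand, the only annotated gene that overlaps any of the 56. Reads of the 2 cannot be told apart here.

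**Figure D2:**
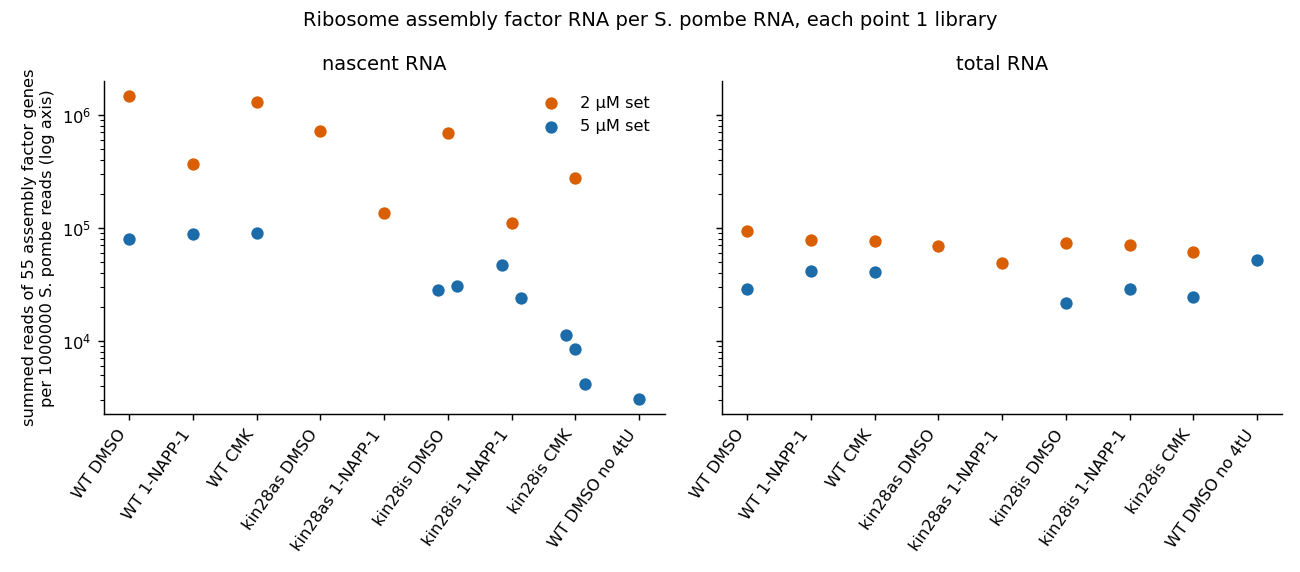
Summed reads of the 55 assembly factor genes per 1000000 S. pombe reads (log axis) in each library, nascent RNA on the left and total RNA on the right, by strain and treatment, with 1 point per library and colour for the labelled dose. In nascent RNA the 3 kin28is CMK libraries at 5 µM lie at 11291, 8353 and 4146, below every other library with 4tU and above the library without 4tU at 3027.

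CMK at 5 µM lowered the new RNA of nearly every assembly factor gene in kin28is cells. Summed over the 55 genes, the DMSO libraries held 28124 and 30622 reads per 1000000 S. pombe reads, the 1-NAPP-1 libraries 46255 and 23669, and the CMK libraries 11291, 8353 and 4146. Every CMK library was below every DMSO and 1-NAPP-1 library. Of the 54 tested genes, 52 fell against DMSO and 0 rose (edgeR quasi-likelihood test over 5206 genes, Benjamini-Hochberg adjusted p under 0.05). Over all genes 70.5% fell and 0.231% rose, 70.7% in all, so the fall was shared with most genes. The median change of the 54 genes was -1.89 on the log2 scale, a 3.71-fold decrease, beside -1.66 for all genes. In 53 of the 54 all 3 CMK libraries lay below both DMSO libraries, as they did for 81.7% of all genes. These genes share each library's S. pombe scaling and are not independent counts of the same event.

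The count moved with the libraries in the fit. Without DMSO replicate 3 the count was 16 of 54, and in a fit of all 16 nascent libraries at both doses it was 0, with or without a term for the replicate number. Of the members' level in the CMK libraries, the level without 4tU was 26.8%, 36.2% and 73.0% in replicates 2, 3 and 4, and gene by gene 1, 1 and 15 of the 54 were at or below it, against 7.13%, 3.92% and 24.6% of all genes. The part that unlabelled RNA plays in the sizes of the changes was not tested.

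By particle, the class medians lay close together, while single genes ran from -3.03 to -0.32. The 3 measured proteins of box C/D and U3 snoRNPs all fell, with a median log2 change of -2.20. RRP9, the protein particular to U3, fell by 2.40 (SE 0.54), NOP1 (YDL014W), the methyltransferase fibrillarin, by 2.20 (SE 0.56) and NOP56 by 2.12 (SE 0.51). All 7 genes of UTP-A, the complex that binds the precursor first, fell, with a median of -1.98. UTP4 (YDR324C) of that complex stood at 507 and 573 reads per 1000000 S. pombe reads with DMSO, 733 and 417 with 1-NAPP-1 and 96.8, 101 and 55.3 with CMK. The CMK libraries lay below all of these others, while the DMSO values lay between the 1-NAPP-1 values, and UTP4 fell by 2.67 against DMSO (SE 0.55, adjusted p = 5.74e-05). Its level without 4tU was 46.7, below the CMK values. NAN1, the UTP-A gene with the highest nascent level, fell by 1.98 (SE 0.52).

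All 6 UTP-B genes fell, with a median of -1.79. UTP13 fell by 1.87 (SE 0.52) and PWP2, a core subunit of the complex, by 1.68 (SE 0.52), close to the median gene of the genome. The 3 genes of the MPP10 complex, which binds U3 and the precursor, fell with a median of -1.87, and MPP10 itself by 1.89 (SE 0.55). The other 15 genes of the 90S particle all fell, with a median of -1.94.

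UTP20 (YBL004W), a very large repeat protein of the 90S and the gene with the smallest p of the 54, gave well-counted values. It stood at 2897 and 3207 reads per 1000000 S. pombe reads with DMSO, 4175 and 2607 with 1-NAPP-1, and 546, 641 and 362 with CMK. The library without 4tU had 193, below all of them. It fell by 2.55 (SE 0.47, adjusted p = 5.70e-06), and UTP22, a subunit of the UTP-C complex, fell by 2.55 (SE 0.52). NSR1 had 472 and 426 with DMSO, 850 and 356 with 1-NAPP-1 and 179, 66.7 and 29.2 with CMK, a fall of 2.3 (SE 0.55) with a wide spread among the CMK libraries. Its level without 4tU was 58.2, within the CMK range.

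RRP5, an RNA-binding protein that both subunits need, and HAS1, an RNA helicase on both pathways, fell by 1.72 (SE 0.48) and 1.84 (SE 0.55). Among pre-60S assembly genes 12 of 13 tested fell, with a median of -1.89. NOP15 (YNL110C), an RNA-binding protein of the early pre-60S, had the most negative change of the 54 at -3.03 (SE 0.60, adjusted p = 2.50e-05). It stood at 260 and 263 reads per 1000000 S. pombe reads with DMSO, 633 and 213 with 1-NAPP-1 and 22.2, 49.4 and 24.8 with CMK, and at 33.6 without 4tU. The CMK values rest on 14, 37 and 62 reads and lie on both sides of the unlabelled level. BRX1 fell by 2.46 (SE 0.56). NOP13 had the smallest change that still passed, a fall of 1.21 (SE 0.57, adjusted p = 0.0495).

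RPF1 (YHR088W), a pre-60S protein of the Brix family, missed the threshold with a change of -1.09 (SE 0.61, adjusted p = 0.0924). It stood at 110 and 92.3 reads per 1000000 S. pombe reads with DMSO and at 79.4, 45.4 and 19.6 with CMK, so its groups did not overlap. Of the GTPases, the anti-association factor TIF6 and RLP24, 4 of 5 fell, with a median of -2.0, and RLP24 fell by 2.40 (SE 0.57). NOG2 did not pass, at -0.32 (SE 0.50, adjusted p = 0.552). Its values were 881 and 1145 with DMSO, 1595, 591 and 201 with CMK and 475 without 4tU. It was the only member whose DMSO and CMK libraries overlapped on this scale.

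Related gene lists, chosen as the members were, are set beside all genes, of which 70.5% fell (median -1.66). Among the other ribosome assembly genes 60 of 72 fell (median -1.68), as did 9 of 9 RNA polymerase I subunit genes (median -1.82) and 8 of 8 measured regulators of ribosome synthesis (median -1.90). Of the cytosolic ribosomal protein genes 50 of 132 fell, a smaller share than over all genes, with a median of -1.03. Summed, this class held 30264, 39293 and 10173 reads per 1000000 S. pombe reads in CMK replicates 2, 3 and 4. Without 4tU it held 20936, within that range. The part that unlabelled RNA plays in its change was not tested.

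**Figure D3:**
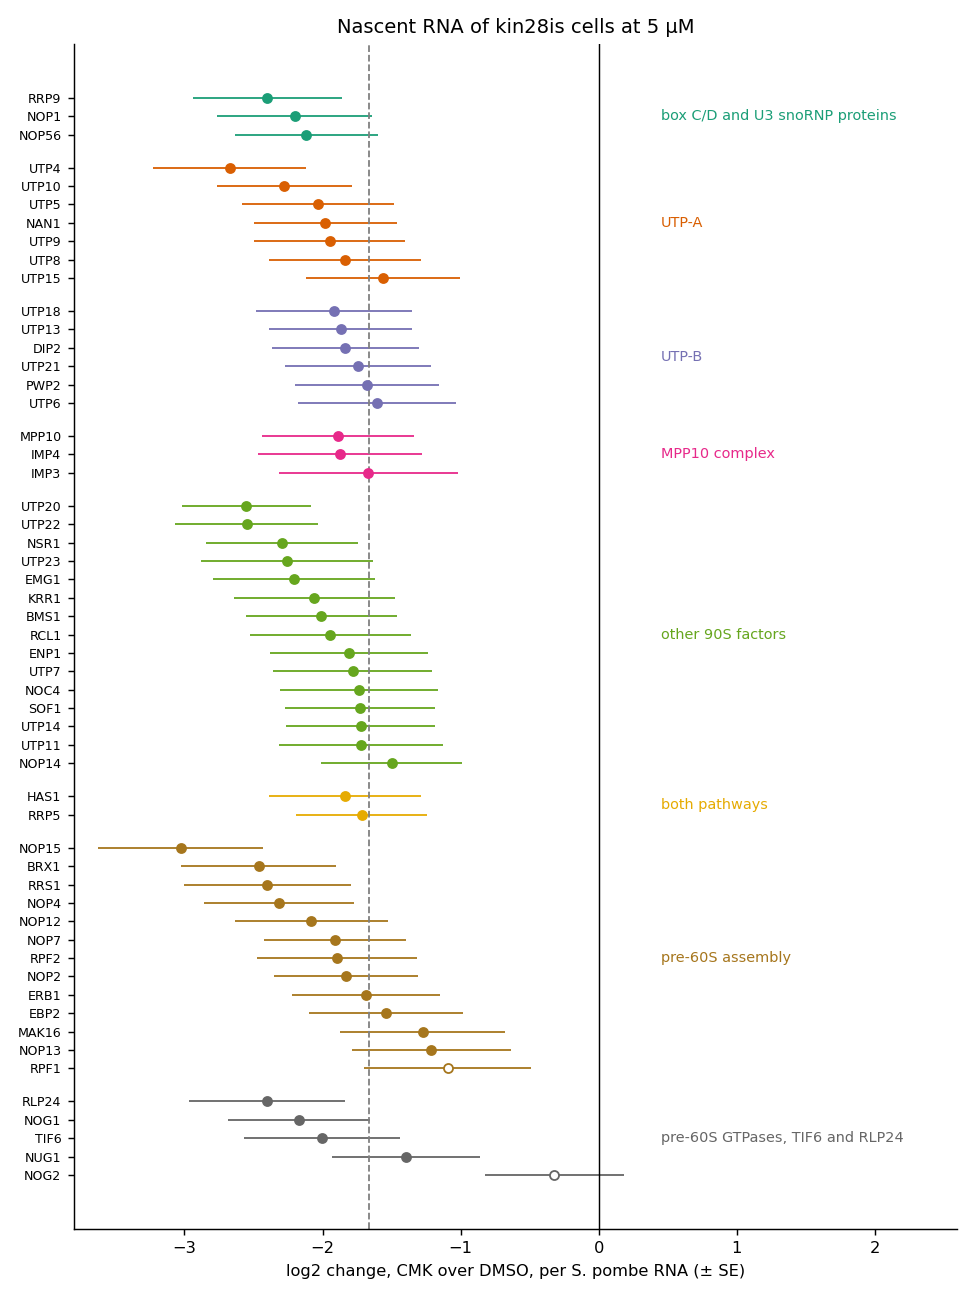
Log2 change (± SE of the edgeR fit) of each of the 54 tested assembly factor genes in nascent RNA of kin28is cells, CMK over DMSO at 5 µM per S. pombe RNA, grouped and coloured by complex. Filled points passed the adjusted p of 0.05, open points did not, and the dashed line is the median of all genes at -1.66; all points are below 0, and the 2 open points are RPF1 and NOG2.

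Relative to the other S. cerevisiae genes, 1 of the 54 passed the test after CMK. This was UTP4, which fell by 1.02 (SE 0.24, adjusted p = 0.0314), from 180 and 143 RPKM with DMSO to 81.0, 85.6 and 85.7 with CMK. At 2 µM it was at 139 RPKM with DMSO and 137 with CMK, 1 library each. Over all genes 2.09% fell and 2.4% rose, 4.49% in all, so the count is near the background. The call of UTP4 was lost without any 1 of DMSO replicate 2 or 3 or CMK replicate 3 or 4, and 0 genes passed in the fits of all 16 libraries. The changes of the 54 genes nonetheless leaned one way: 48 were negative, beside 49.2% of all genes, and their median was -0.31. The other assembly genes had a median of -0.10, and ribosomal protein genes of +0.58. Per S. pombe read, the ribosomal protein genes' level without 4tU lay within the range of their CMK libraries. The part of unlabelled RNA in these medians was not tested. NOP15 had the most negative change, at -1.30 (SE 0.36, adjusted p = 0.0608).

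NOG2 had the most positive relative change, at +1.13 (SE 0.46, adjusted p = 0.174). It went from 366 and 333 RPKM with DMSO to 1561, 584 and 365 with CMK, and was at 1660 RPKM without 4tU. CMK replicate 2 was far above the others. At 5 µM, genes with little transcription also took a larger share of the kin28is CMK libraries than of the kin28is DMSO libraries. The 200 least-read genes averaged 4.55 and 6.52 RPKM with DMSO, 24.6, 21.1 and 13.1 with CMK and 30.6 without 4tU. Whether this rise is particular to CMK or to kin28is was not tested, nor was its part in the relative changes.

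The 2 inhibitors were compared at the matched 5 µM dose in kin28is cells. With 1-NAPP-1 against DMSO 0 of the 54 genes passed (edgeR, 0 with an unadjusted p under 0.05, and 0 by DESeq2), with 0% of all genes falling and 0.134% rising. The median change was 0.24, and the 2 libraries disagreed: compared with same-numbered DMSO libraries, the median gene was at +0.70 in replicate 2 and -0.36 in replicate 3. Against 1-NAPP-1, CMK lowered 53 of 54 genes, with a median of -2.17 beside -1.82 over all genes, of which 73.8% fell and 0.0192% rose. Without 1-NAPP-1 replicate 2, the shallowest library, 27 fell, and 0 did in the fits of all 16 libraries. NOP15 fell by 3.71 (SE 0.61) and UTP20 by 2.72 (SE 0.47). NOG2 was the gene that did not pass, at -0.66 (SE 0.50, adjusted p = 0.221). On the relative scale NOP15 alone passed, falling by 1.63 (SE 0.38, adjusted p = 0.0468), with 1.13% of all genes falling and 0.807% rising, 1.94% in all. The comparisons with DMSO and with 1-NAPP-1 share the CMK libraries.

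At 2 µM, with 1 library a group and no test, the order of the inhibitors was different. Against kin28is DMSO at 688071 reads per 1000000 S. pombe reads, the 1-NAPP-1 library held 109650 and the CMK library 272378. The median gene was at -2.67 with 1-NAPP-1 and -1.37 with CMK on the log2 scale, beside -2.80 and -1.22 over all genes. WT cells of the same set went from 1454060 with DMSO to 366683 with 1-NAPP-1 and 1301410 with CMK, so a low 1-NAPP-1 library was also seen without the sensitive allele.

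WT cells served as the control for effects of the compounds that do not go through the altered kinase. At 5 µM the summed level was 78580 for DMSO, 88115 for 1-NAPP-1 and 89770 for CMK, from 1 library each, whose spread was taken to be that of the other groups. None of the 54 genes passed for CMK (edgeR, 0 unadjusted, 0 by DESeq2, median change 0.22) or for 1-NAPP-1 (0 unadjusted, 0 by DESeq2, median 0.04), with 0.0768% of all genes falling in each. The CMK change in kin28is minus that in WT had a median of -2.04. In the test of that difference 0 of 54 passed, 30 had an unadjusted p under 0.05 and DESeq2 called 15, while 0.269% of all genes were lower. UTP20 had the smallest p, with a difference of -2.91 (SE 0.88, adjusted p = 0.103). A stronger response of kin28is than of WT was therefore not established for any single gene by edgeR.

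With DMSO alone kin28is already held less of this RNA than WT per S. pombe read at 5 µM, at 28124 and 30622 against 78580. The median change was -1.49 beside -1.26 over all genes. By edgeR 0 of 54 passed, 34 had an unadjusted p under 0.05 and DESeq2 called 11, with 0.423% of all genes lower, and without CMK replicate 4 edgeR called 20. KRR1, a 90S protein with an RNA-binding domain, had the smallest p, at -2.32 (SE 0.74, adjusted p = 0.133). At 2 µM the single libraries stood at 688071 for kin28is, 721764 for kin28as and 1454060 for WT. Relative to other genes the kin28is DMSO library was lower than WT in 53 of the 54 at 2 µM (median -0.65). At 5 µM replicate 2 of kin28is was lower than WT in 23 of the 54 (median +0.04), and the fit of both kin28is DMSO libraries gave a median of -0.15, beside +0.03 over all genes, with 0 of 54 passing (edgeR, 0 unadjusted, 0% of all genes lower). The 55 genes took 2.33% and 1.78% of S. cerevisiae reads in those 2 libraries and 2.16% in the WT library.

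In total RNA per S. pombe RNA, with the labelled dose set as a term, 3 of 54 genes fell after CMK in kin28is cells and 0 rose, with 1.99% of all 5220 genes falling and 0.307% rising. The median change was -0.20, beside +0.17 for all genes. The 3 were NSR1, NOP56 and NOP1, at mean WT DMSO levels of 417, 702 and 688 RPKM against the median of 144. NSR1 went from 1730 and 407 reads per 1000000 S. pombe reads with DMSO to 1055 and 450 with 1-NAPP-1 and to 437 and 151 with CMK in replicates 1 and 2. It fell by 1.84 (SE 0.35, adjusted p = 4.89e-05). NOP56 had 3705 and 986 with DMSO, 2986 and 1351 with 1-NAPP-1 and 1500 and 395 with CMK, and fell by 1.43 (SE 0.33, adjusted p = 0.00259). NOP1 had 2940 and 612 with DMSO, 2457 and 803 with 1-NAPP-1 and 1172 and 343 with CMK, and fell by 1.23 (SE 0.34, adjusted p = 0.0179). In each replicate set CMK was the lowest treatment for these 3 genes. Without the dose set term 0 passed, and without CMK replicate 2 the count was 1.

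Relative to S. cerevisiae genes, 16 of 54 fell in total RNA and 0 rose. Over all genes 20.3% fell and 18.4% rose. The share that fell, 29.6%, is above that background and the share that rose is below it; neither difference was tested. The median was -0.42, and 46 of 54 changes were negative beside 48.9% of all genes. By replicate set, 34 were negative and 20 positive in replicate 1 (median -0.19), and all 54 were negative in replicate 2 (median -0.71). The count was 2 without DMSO replicate 2 or without CMK replicate 2, 31 without DMSO replicate 1 and 9 without the dose set term. The 200 least-read genes averaged 41.6 RPKM in CMK replicate 2 of kin28is, against 3.52 in its DMSO replicate 2. Whether this rise is particular to CMK or to kin28is was not tested, nor was its part in the relative changes.

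The genes that fell on the relative scale were spread unevenly over the classes. Of the box C/D proteins 2 of 3 fell (NOP1 by 1.44, SE 0.27, and NOP56 by 1.64, SE 0.32), while RRP9 changed by -0.12 (SE 0.19) and did not pass. No gene passed of the 7 in UTP-A, the 6 in UTP-B or the 3 of the MPP10 complex, whose medians were -0.34, -0.03 and -0.38. Of the other 90S factors 5 of 15 fell: NSR1 by 2.10 (SE 0.37), the ribosomal RNA methyltransferase EMG1 by 0.99 (SE 0.16), and KRR1, UTP23 and UTP11 by 0.61 to 0.75. Of the pre-60S assembly genes 6 of 13 fell. They were NOP15 by 1.15 (SE 0.26), RRS1 by 1.05 (SE 0.21) and RPF2 by 0.79 (SE 0.25), the last 2 of which bring the 5S ribonucleoprotein into the particle, and NOP7, the methyltransferase NOP2 and BRX1 by 0.79 to 0.92. TIF6 fell by 1.06 (SE 0.18), RLP24 by 1.01 (SE 0.24) and the helicase HAS1 by 0.76 (SE 0.24). These 16 genes are adjusted over all 5220, and the differences between classes were not tested.

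NSR1 shows the pattern most plainly. In total RNA it was at 310 and 321 RPKM with DMSO, 197 and 222 with 1-NAPP-1 and 97.2 and 89.6 with CMK in kin28is cells, so that the 3 treatments did not overlap. In WT it was at 539 and 294 RPKM with DMSO, 627 and 290 with 1-NAPP-1 and 524 and 268 with CMK. The gene with the next most negative change, NOP56, went from 546 and 639 RPKM with DMSO to 459 and 549 with 1-NAPP-1 and 275 and 193 with CMK. At the other end UTP22 (+0.30, SE 0.22), NOG2 (+0.12, SE 0.39) and PWP2 (+0.08, SE 0.22) had the most positive changes, and none passed. UTP22 was at 77.5 and 92.8 RPKM with DMSO and 137 and 119 with CMK, although its new RNA had been among the most reduced.

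Other lists in total RNA are set beside all genes, of which 20.3% fell and 18.4% rose on the relative scale. Among RNA polymerase I subunit genes 8 of 9 fell on the relative scale, with a median of -1.0. Of the other assembly genes 21 of 72 fell (median -0.29). Of the ribosomal protein genes 19 of 132 did (median -0.37), a smaller share than over all genes. The differences from all genes were not tested. Of the 8 measured regulators, HMO1, which encodes a high-mobility-group protein of ribosomal gene promoters, fell by 1.5 (SE 0.20). The kinase gene SCH9 rose by 0.69 (SE 0.15) and STB3 by 0.47 (SE 0.16). The repressor genes DOT6 and TOD6 changed by +0.24 (SE 0.18) and +0.47 (SE 0.35) and did not pass.

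Against 1-NAPP-1 the same 3 genes, NSR1, NOP56 and NOP1, were lower with CMK in total RNA per S. pombe RNA, by 1.53 (SE 0.35), 1.44 (SE 0.33) and 1.23 (SE 0.34), with 3.95% of all genes lower. Without 1-NAPP-1 replicate 2 or CMK replicate 2 none was, and without CMK replicate 1 the count was 1. Relative to other genes 6 of 54 were lower, these 3 and TIF6, EMG1 and RLP24, with 12.1% of all genes lower, so the count was near the background. Under 1-NAPP-1 against DMSO 0 of 54 passed in kin28is total RNA (edgeR, 0 unadjusted, 0 by DESeq2, 0% of all genes lower). In WT 0 of 54 passed for CMK and 0 for 1-NAPP-1 (edgeR, 0 unadjusted and 0 by DESeq2 in each, 0% of all genes lower). On the relative scale WT cells with CMK nevertheless had negative changes in 53 of 54 genes, with a median of -0.21. The fit for kin28is cells with 1-NAPP-1 also gave 53 of 54, with a median of -0.21. Over all genes the median was +0.02 in each. By replicate set, WT with CMK had 50 and 52 negative (medians -0.14 and -0.29). For kin28is with 1-NAPP-1, replicate 1 had 32 negative and 22 positive (median -0.03) and replicate 2 had 54 negative (median -0.36). A small relative lean towards lower values was thus also present where no gene passed, for kin28is with 1-NAPP-1 mainly in replicate 2. The comparisons within a strain share their DMSO libraries.

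The test of the CMK change in kin28is minus that in WT called 1 gene of 54 in total RNA, with 0.441% of all genes lower. This was NSR1, with a difference of -1.85 (SE 0.49, adjusted p = 0.0364). NOP56 and NOP1 had differences of -1.33 (SE 0.46) and -1.32 (SE 0.47) and did not pass (adjusted p = 0.429 and 0.448). The count was 0 in 9 of the 12 fits that left out a library, including each of those without a CMK library of kin28is, and 0 without the dose set term. Between kin28is and WT with DMSO 0 of 54 genes passed in total RNA (edgeR, 1 unadjusted, 0 by DESeq2, 0% of all genes lower). All 54 changes were negative, with a median of -0.42 beside -0.17 over all genes. The least negative was EMG1 at -0.014, and 76.7% of all genes had a change below it. Relative to other genes the 2 sets differed. In replicate 1 all 54 were lower in kin28is (median -0.51), while 11 of 54 were lower in replicate 2 (median +0.12).

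Setting the 2 fractions side by side on the relative scale, 41 of the 54 genes had a negative CMK change in both nascent and total RNA, 7 in nascent only, 5 in total only and 1, NOG2, in neither. The sizes differed by gene. UTP4 changed by -1.02 in nascent and -0.42 (SE 0.23) in total RNA, and UTP20 by -0.89 (SE 0.30) and -0.45 (SE 0.26). NSR1 changed by -0.86 (SE 0.41) and -2.10, and NOP56 by -0.55 (SE 0.25) and -1.64. The nascent values come from 5 µM alone and the total values from both doses, and the differences between fractions were not tested.

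**Figure D4:**
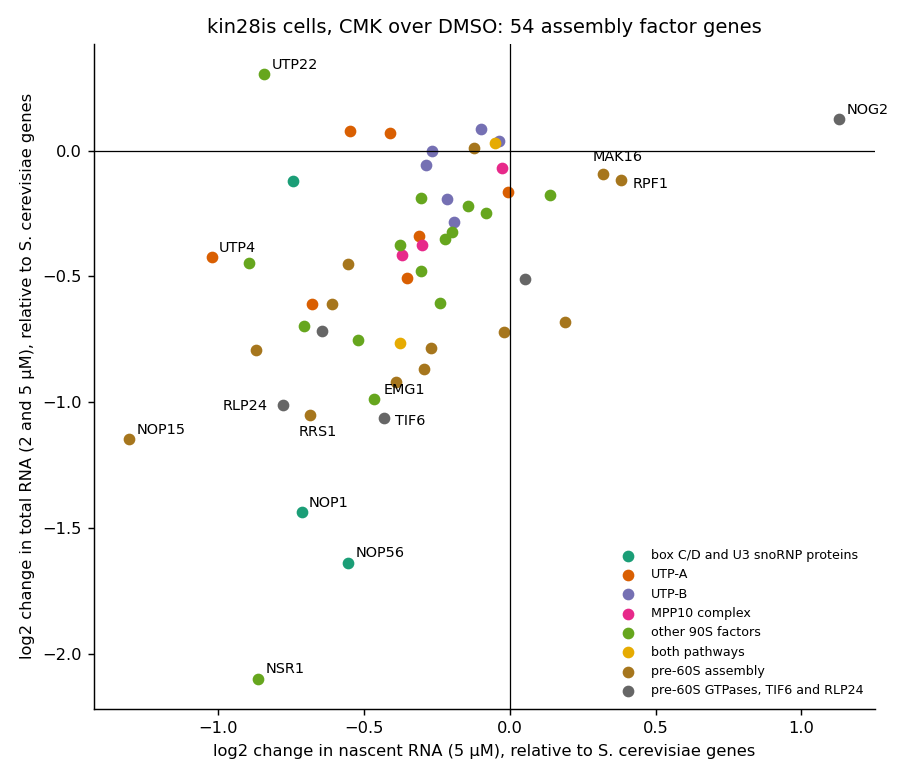
Each point is 1 of 54 assembly factor genes, with its log2 change (CMK over DMSO in kin28is cells, relative to S. cerevisiae genes) in nascent RNA at 5 µM on the horizontal axis and in total RNA at 2 and 5 µM on the vertical axis, coloured by complex. Most points (41) are negative on both axes; NSR1, NOP56 and NOP1 lie lowest and NOG2 farthest to the right.

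**Figure D5:**
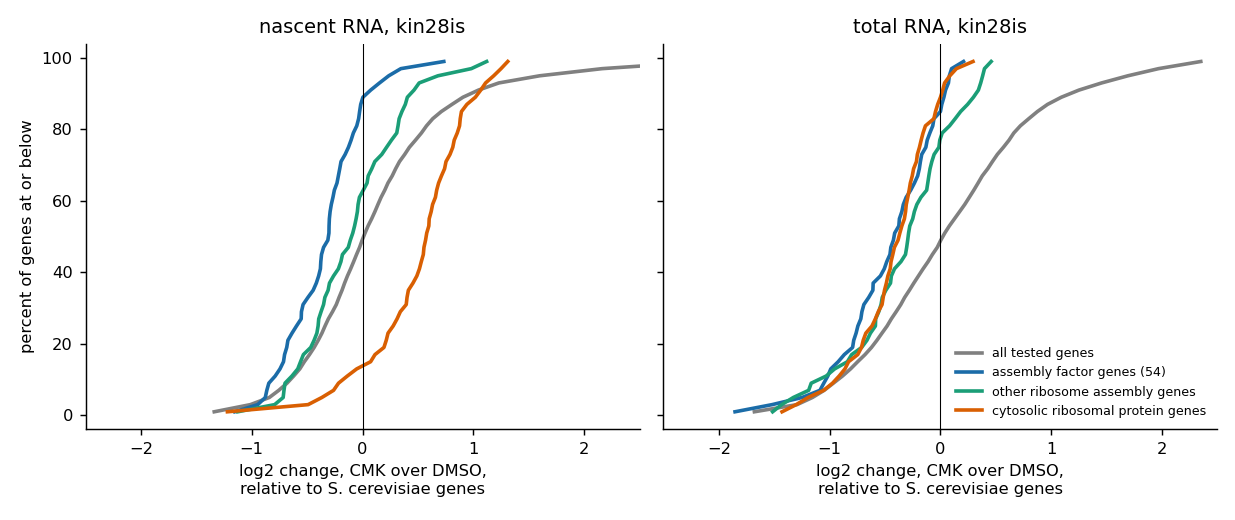
Cumulative percent of genes (vertical axis) at or below each log2 change (CMK over DMSO in kin28is cells, relative to S. cerevisiae genes) in nascent RNA (left) and total RNA (right), for the 54 assembly factor genes, the other assembly genes, cytosolic ribosomal protein genes and all tested genes. The median of the assembly factor genes is below that of all genes in both fractions (-0.31 and -0.42), while the median of the ribosomal protein genes is above it in nascent RNA (+0.58) and below it in total RNA (-0.37); the nascent curves cross that of all genes near their ends.

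The kin28as strain offers a further sensitive allele, with 1 DMSO and 1 1-NAPP-1 library per fraction at 2 µM and therefore no test. The summed nascent level was 721764 reads per 1000000 S. pombe reads with DMSO and 135437 with 1-NAPP-1. The median gene was at -2.40 on the log2 scale, beside -1.94 over all genes. In WT of the same set 1-NAPP-1 gave a median of -1.94, beside -1.81 over all genes. Relative to other genes 52 of 54 were negative in kin28as, with a median of -0.46 and the lowest value, -1.54, at NSR1. The same pair in WT had 43 negative and 11 positive, with a median of -0.13. In total RNA the summed level of kin28as was 69214 with DMSO and 48907 with 1-NAPP-1, and 53 of 54 were negative on the relative scale (median -0.57). WT total RNA of the set had 26 negative and 28 positive. In kin28as NSR1 was again the lowest at -1.98, from 548 to 182 RPKM, and UTP22 was the 1 gene that was positive, at +0.48. The same 2 genes held the ends of the range in kin28is total RNA after CMK. In kin28is cells 1-NAPP-1 at 2 µM gave a median of +0.13 in nascent RNA and -0.03 in total RNA on the relative scale, so the 2 alleles are listed side by side here without a test between them.

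The changes were also set beside the promoter cores, with no test. After CMK in kin28is cells the 40 tested genes with both cores had a median relative change of -0.33 in nascent and -0.46 in total RNA, and the 14 without both had -0.31 and -0.33. In nascent RNA the changes ran from -1.30 to +1.13 with both and from -1.02 to +0.19 without both. By the PAC core alone, the 50 genes with GATGAG had medians of -0.30 in nascent and -0.43 in total RNA, and the 4 without it had -0.65 and -0.29. NSR1 and NOG2, at the ends of the range in total and nascent RNA, both carry the 2 cores, as their printed windows show.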

How the data were processed

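The authors deposited raw counts of reads for the genes of S. cerevisiae and S. pombe in 1 table of 34 libraries, per the file headers. Libraries were made with ScriptSeq after rRNA depletion and read as 100 bp single-end reads, per the labels' protocols. Tools listed in the submitters' processing notes are HTSeq 0.6.0, STAR 2.3.0 and CASAVA 1.8.2, with sacCer3 as the build. Strand use in counting and the split of reads between the genomes are not given in the sources used here, so reads of overlapping genes and of near-identical copies cannot be assigned with certainty. Symbols, positions and sequence came from RefSeq's R64 assembly, in which all 56 genes and 5241 open reading frames of the table were found and 127 were not.

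Tests used edgeR 4.0.16 in R 4.3.3 (quasi-likelihood fits, filterByExpr with a minimum count of 10, Benjamini-Hochberg adjustment over all tested genes at 0.05), and DESeq2 1.42.0 was the alternative tool. Library sizes were S. pombe totals with TMM factors of S. pombe genes, or S. cerevisiae totals with TMM factors of S. cerevisiae genes. The nascent fit held the 10 WT and kin28is libraries at 5 µM in 6 groups (4 residual degrees of freedom), with single WT libraries assumed to vary like the others. The total RNA fit held 12 libraries in 6 groups with the labelled dose set as a term (5 residual degrees of freedom). In the fits per S. pombe RNA, p-values matched those of a normal distribution for the change over its SE. There the spread was in effect shared between genes, and a gene's own spread hardly entered its p-value. RPKM used S. cerevisiae reads and the annotated gene span. Single-library ratios needed 10 reads in both libraries. The fits were run on simulated data with independent counts, a constant S. pombe share and changes in a small part of the genes. Those data held no unlabelled RNA and no shift of most genes, so they cannot check the fits under such conditions.

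In total RNA the replicate number equals the labelled dose, and the pairing rests on that label; there 20 of 30 same-number pairs of libraries deviated together from their group means (r over 0.1, lowest -0.21, median 0.19). In the 5 µM nascent set 4 of 6 did (lowest 0.04). The smallest chi-square per degree of freedom between libraries of a group was 5.86, so none was counted as a duplicate. The labels do not say that replicates were separate cultures, and p-values therefore reflect only the spread among these libraries, which may be technical. Genes were named by rule: per class the smallest p and the highest nascent level, the 3 most negative and 3 most positive changes in the nascent and in the relative total RNA comparison, the genes not called in nascent RNA with CMK against DMSO, and the genes called where 5 or fewer were. The regulator genes were named as a list. BMS1, KRR1, EMG1, UTP23, UTP11, RRS1, RPF2, NOP7, NOP2 and TIF6 were named after their values were seen. The members and lists were chosen with earlier results of these data known. Alternatives tried were no filter, no TMM, DESeq2, other replicate terms, all nascent libraries and leaving out each library.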

Additional observations from a re-analysis of the deposited data

Results flagged for a closer look

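Among the 4 nascent kin28is CMK libraries, 21 values were tested for a library far from the others and 3 stood out. The values are not independent, and replicate 1 is of the 2 µM set, which stood far from the 5 µM set in other groups too. The 3 therefore cannot be set against a chance rate, and a flag on replicate 1 cannot be told apart from the set. The summed assembly factor level was 272378 reads per 1000000 S. pombe reads in replicate 1, the 2 µM library, against 11291, 8353 and 4146 in replicates 2 to 4. UTP4 was at 137 RPKM in replicate 1, against 81.0, 85.6 and 85.7 in the 5 µM libraries. Its level in kin28is DMSO replicate 1, also of the 2 µM set, was 139 RPKM. PWP2 was at 249 RPKM in replicate 2, against 165, 158 and 168 in the other libraries.

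The CMK change of NSR1 in total RNA differed between the strains, by -1.85 on the log2 scale in kin28is minus WT (edgeR adjusted p = 0.0364). NSR1 was lower with CMK than with DMSO in 2 of 2 kin28is replicate sets per S. pombe read, and in 1 of 2 WT sets.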

How the results depend on the processing

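Over 18 counts of called genes, 213 of 281 alternatives stayed within 1.5 times the reported count and 68 did not; for the named genes, 385 of 464 kept direction and side of the threshold, 76 lost the call, 2 gained it and 1 reversed. The reversal was NOG2 in nascent RNA, which ranged from -1.36 without kin28is CMK replicate 2 to +0.14 without CMK replicate 4. With all 16 nascent libraries, with or without a replicate block, the CMK counts against DMSO and 1-NAPP-1 were 0 on both scales. With a replicate block in the 5 µM fit the relative nascent CMK count against DMSO was 3 (2 lower and 1 higher), and the block moved no other nascent count by over 1.5 times. The nascent numbers are not shown to pair libraries. Without the replicate block in total RNA, the counts for CMK against DMSO, CMK against 1-NAPP-1 and the strain difference were 0 per S. pombe RNA, and the relative counts were 9 and 0. DESeq2 gave 15 for the nascent strain difference in response, 11 for kin28is against WT with DMSO, and 5 and 3 for relative nascent CMK against DMSO and 1-NAPP-1. In total RNA it gave 5, 9 and 3 per S. pombe RNA for the comparisons in the order above and 10 for relative CMK against 1-NAPP-1. Without TMM the count was 0 for relative nascent CMK against 1-NAPP-1, 1 for total CMK against DMSO and 0 for the strain difference in total RNA. The causes were not tested.

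Leaving out 1 library at a time, nascent counts ranged from 16 to 54 for CMK against DMSO, 27 to 54 against 1-NAPP-1, 0 to 1 for the strain difference in response and 0 to 20 for kin28is against WT. Relative nascent counts ranged from 0 to 3 against DMSO and 0 to 2 against 1-NAPP-1. In total RNA they ranged from 1 to 4 for CMK against DMSO, 0 to 6 against 1-NAPP-1 and 0 to 1 for the strain difference, and on the relative scale from 2 to 31 and 0 to 10. The other 7 counts were 0 in every such fit. NSR1 in relative total RNA kept its call in all 16 of its alternatives, while NOP13 in nascent RNA lost it in 10 of 16 and NOP1 in total RNA per S. pombe RNA in 8 of 16.

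The 5 µM CMK libraries limit these results, with a median of 81 to 138 reads per assembly factor gene and an unlabelled level of 26.8% to 73.0% of theirs. WT has 1 nascent library per treatment at 5 µM, and no replicate checks the kin28as values.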
